A study of Mus musculus with 33 samples.

Results

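A set of 9 genes that mark or act in thermoregulatory neurons of the preoptic area (POA) was followed across the hypothalamus of ovariectomized mice. They are *Adcyap1*, *Bdnf*, *Nts*, *Gal*, *Ntsr1*, *Brs3*, *Nos1*, *Trpm2* and *Opn5*. The members were taken by symbol, and each of the 9 had a single entry among the 41565 named entries of the expression table. The table holds 33 bulk RNA-seq libraries of flash-frozen tissue from WT C57BL/6 female mice, 16 of the posterior hypothalamus (PH) and 17 of the POA. The groups were gonad-intact mice in diestrus (4 PH and 5 POA libraries), mice 14 days after ovariectomy (OVX; 6 and 6) and mice 4 months after OVX (6 and 6). Control titles read sham, but the other label and the methods of the study describe gonad-intact animals, so they are called intact here. Mice were operated on as young adults and no intact group of the same age accompanied the 4-month group, so for that group time after surgery and age cannot be told apart. Nothing in the labels says whether a PH and a POA library came from the same animal, or that replicates were separate animals, and *P* values therefore measure the spread between these libraries.

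The POA is the brain's main thermostat. Neurons there read skin and brain temperature, and their inhibitory and excitatory outputs to the dorsomedial hypothalamus and brainstem set heat production in brown fat, blood flow to the skin, shivering and torpor. Warm-activated neurons of the ventral POA are known by their expression of *Adcyap1*, which encodes the peptide PACAP, and of *Bdnf*, a neurotrophin. Estrogens act on many preoptic neurons through the estrogen receptor α, the product of *Esr1*, and loss of estrogen is linked to hot flashes.

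Deposited values are a normalized signal on a linear scale, not counts. Genes without measurable expression lie near a floor of 22.1, so low genes change less on this scale than they would as counts. Summed over genes, libraries differed little except for PH library 5 at 14 days, which held the highest sum. Such sums are no read totals, and the sequencing depth is unknown. Markers of neurons, glia, endothelium, striatum, thalamus and cortex were all present in every library of both regions. Over the 33 libraries, the log2 values of all genes varied very little along 1 direction, with an SD of 0.057 against 0.19 along the next and 0.70 along the first, as they would if 1 component had been taken out before deposit. Of this direction, 83.4% lay between the PH and the POA, and the mean of a gene differed between the regions by a median of only 0.048 on the log2 scale. All 5 preoptic markers reached 2 times the floor in every library of either region, and 8 of 9 posterior and tuberal markers did so in the PH against 5 of 9 in the POA. *Gnrh1*, the gene of the preoptic GnRH neurons, spanned 44.9 to 160.6 in the PH and 57.1 to 255 in the POA, a mean of 0.41 log2 units higher in the POA. *Pmch*, which encodes melanin-concentrating hormone of the lateral and posterior hypothalamus, spanned 438 to 10386 in the PH and 136 to 4316 in the POA, a mean of 1.08 lower in the POA on the log2 scale (PH 10.93, POA 9.86). Differences in level between regions are not interpreted here, since values that differ by region may have been reduced in this table, and the part of this step in the fits, errors and correlations within a region was not tested beyond a fit with the floor level of each library as a covariate, under which no member was called either. In bulk tissue fewer cells of a type and less RNA per cell cannot be told apart.

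Promoter sequences are shown for *Nts*, *Gal* and *Brs3*, because *Brs3* followed both *Nts* and *Gal* across the POA libraries. The sequences are the 250 bases before the RefSeq start (GRCm38.p6), written from 5′ to 3′ on the strand of the gene. RefSeq held 15 such promoters for 8 of the 9 members, and none was matched for *Opn5*. The *Nts* promoter lies at chr10:102490419-102490668 on the minus strand, that of *Gal* at chr19:3414545-3414794 on the minus strand and that of *Brs3* at chrX:57042824-57043073 on the plus strand. Capitals mark an AP-1 site.
Nts: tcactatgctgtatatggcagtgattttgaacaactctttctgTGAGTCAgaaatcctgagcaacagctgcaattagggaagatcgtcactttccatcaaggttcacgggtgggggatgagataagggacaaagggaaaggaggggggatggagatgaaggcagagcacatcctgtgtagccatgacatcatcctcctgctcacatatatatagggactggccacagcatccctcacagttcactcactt
Gal: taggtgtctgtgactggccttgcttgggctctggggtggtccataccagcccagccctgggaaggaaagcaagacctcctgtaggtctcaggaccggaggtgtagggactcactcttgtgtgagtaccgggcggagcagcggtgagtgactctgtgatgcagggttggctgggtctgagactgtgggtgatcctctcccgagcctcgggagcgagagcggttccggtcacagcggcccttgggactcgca
Brs3: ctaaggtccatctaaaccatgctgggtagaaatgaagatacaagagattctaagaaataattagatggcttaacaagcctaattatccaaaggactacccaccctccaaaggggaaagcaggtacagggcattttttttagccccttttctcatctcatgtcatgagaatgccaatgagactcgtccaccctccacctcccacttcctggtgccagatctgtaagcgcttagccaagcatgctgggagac
Each of the 15 promoters was searched on both strands for the cAMP response element (TGACGTCA), the AP-1 site (TGAGTCA), a heat shock unit (GAANNTTC) and the palindromic estrogen response element. Only 2 held a match, the AP-1 site 207 bases before the *Nts* start and a heat shock unit 116 bases before the most upstream of the 7 *Bdnf* starts. Of all 32851 RefSeq promoters, 1.55% held the cAMP response element, 4.46% the AP-1 site, 6.69% the heat shock unit and 0.0639% the estrogen response element. These letter matches are descriptions and say nothing about binding.

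*Opn5* was the only member below the expression filter, which required 2 times the floor in at least 4 PH or 5 POA libraries. The other 8 members were tested in both regions. No member was called, at an adjusted *P* under 0.05, in any of the 6 comparisons within a region or in either test of the difference between regions (limma on log2 values with the first surrogate variable, SV1, and Benjamini-Hochberg adjustment over all genes tested). Few genes of any kind passed this test. In the PH, 0 of 21966 genes were called at 14 days against intact (0%), 7 at 4 months against intact (0.0319%) and 2 at 4 months against 14 days (0.0091%). In the POA, 1 of 21339 genes was called at 14 days (0.00469%), 20 at 4 months (0.0937%) and 6 between the times (0.0281%). The response of the PH differed from that of the POA for 1 of 22108 genes at 14 days (0.00452%) and for 2 at 4 months (0.00905%). Without adjustment, 1 of the 8 tested members had *P* under 0.05 in the PH at 14 days, where 3.04% of all genes did, and 1 of 8 in the PH at 4 months, against 6.06% of all genes. None of the 8 did so in the PH between the times (4.09% of all genes), in the POA at 14 days (6.14%) or in the POA between the times (5.11%). In the POA at 4 months against intact it was 1 of 8 beside 8.5% of all genes. For the difference between regions it was 0 of 8 at 14 days beside 2.99%, and 1 of 8 at 4 months beside 3.61%.

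**Figure D1:**
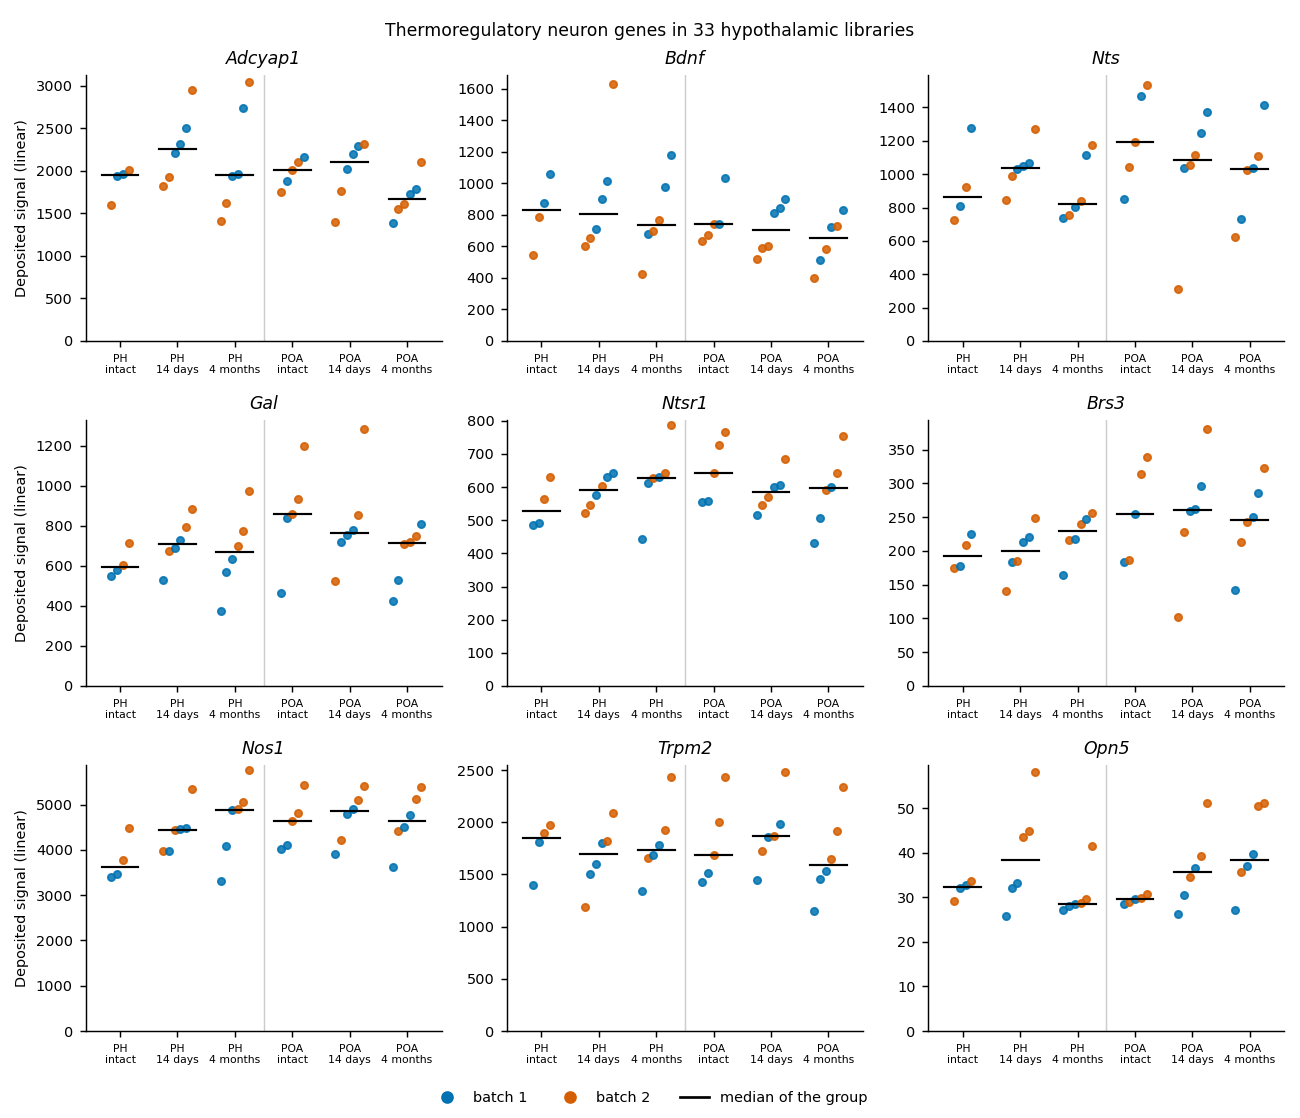
Deposited signal (linear, from 0) of the 9 genes in each of 33 libraries, by region and time after OVX. Points are libraries colored by labelled batch and bars are group medians; the groups overlap in every panel, and *Nts* and *Brs3* spread more in the POA than in the PH.

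*Adcyap1* lies on chromosome 17 (93506397 to 93515189, plus strand, GRCm39) and encodes PACAP, the peptide of warm-activated preoptic neurons. In the POA of intact mice its values were 1883, 2161, 2104, 1751 and 2006. They ran from 1402 to 2312 with a median of 2106 at 14 days, and from 1387 to 2099 with a median of 1666 at 4 months. Of the 6 libraries at 4 months, 4 lay below every intact library and the others within the intact range. The fitted log2 change at 4 months was -0.24 (95% CI -0.50 to 0.01, SE 0.12, adjusted *P* = 0.618), and at 14 days it was -0.01 (95% CI -0.27 to 0.24). An exact two-sided permutation test of the POA libraries at 4 months against intact, without covariates, gave *P* = 0.0476, unadjusted for the 54 such tests of the 9 genes. The difference had the same sign in both batches, at -0.31 and -0.17. In the PH, intact values of 1942, 1966, 2006 and 1592 compared with 1823 to 2943 at 14 days (median 2260.2) and 1405 to 3046 at 4 months (median 1948). PH changes were 0.16 on the log2 scale at both times (95% CI -0.17 to 0.49 at 14 days and -0.16 to 0.47 at 4 months), and the regions differed at 4 months by 0.42 (95% CI 0.01 to 0.84, adjusted *P* = 1.00).

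*Bdnf*, the neurotrophin gene of the same warm-activated neurons, lies on chromosome 2 (109505045 to 109557475, plus strand). Its POA values were 744, 1035, 675, 632 and 743 in intact mice. At 14 days they ran from 518 to 901 (median 705) and at 4 months from 400.4 to 832 (median 651). The groups overlapped, and 3 of 6 libraries at 4 months were below all intact libraries. At 4 months the log2 change was -0.38 (SE 0.15, 95% CI -0.69 to -0.07, adjusted *P* = 0.482), the smallest adjusted *P* of any member in these comparisons, and at 14 days it was -0.18 (95% CI -0.49 to 0.13). The exact permutation test without covariates gave *P* = 0.177 at 4 months, and the difference was -0.38 in batch 1 and -0.30 in batch 2. In the PH, *Bdnf* was 1060.3, 874, 784 and 545 in intact mice, 605 to 1627 at 14 days and 427 to 1178 at 4 months. The highest value belonged to library 5 at 14 days, the library with the highest sum. Fitted PH changes were -0.14 (95% CI -0.43 to 0.16) at 14 days and -0.01 (95% CI -0.29 to 0.28) at 4 months. Without covariates the 14-day difference in the PH was 0.12, of the other sign, at -0.15 in batch 1 and 0.40 in batch 2.

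*Nts* encodes neurotensin, a peptide that lowers body temperature when given into the brain, and lies on chromosome 10 (102317614 to 102326396, minus strand). In the POA of intact mice it was 1469.5, 852, 1194, 1044 and 1536. It ran from 314 to 1376 with a median of 1087 at 14 days, and from 624 to 1415 with a median of 1033 at 4 months. The value of 314, in library 6, was far below the next value of 1035. *Nts* had the widest intervals of all members, with log2 changes of -0.43 (SE 0.31, 95% CI -1.10 to 0.25, adjusted *P* = 0.871) at 14 days and -0.40 (95% CI -1.08 to 0.28, adjusted *P* = 0.759) at 4 months. Without library 6 at 14 days, the 14-day change was -0.07, and without intact library 2 the changes were -0.64 and -0.62. In the PH, the values of 1274, 808, 725 and 923 in intact mice lay within or near the 843 to 1274 at 14 days and the 737 to 1173 at 4 months, and the changes against intact were 0.11 at 14 days, or 0.27 without intact library 1, and -0.02 at 4 months.

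*Gal* encodes galanin, carried by sleep-promoting preoptic neurons whose activity also cools the body, and lies on chromosome 19 (3459912 to 3464881, minus strand). POA values were 839.8, 465, 1196, 858 and 932 in intact mice. They ran from 524 to 1285 (median 766) at 14 days and from 426 to 808 (median 715) at 4 months. The groups overlapped, although no library at 4 months reached the 4 highest intact values. The log2 change was -0.30 (SE 0.23, 95% CI -0.80 to 0.20) at 4 months and -0.01 (95% CI -0.51 to 0.49) at 14 days. With 1 library left out, the 4-month change lay between -0.51 (without intact library 2) and -0.20 (without intact library 3), and the 14-day change between -0.21 (without intact library 2) and 0.21 (without library 6 at 14 days). In the PH, *Gal* ran from 550.4 to 713 in intact mice, from 529 to 882 at 14 days and from 374 to 975 at 4 months, with changes of 0.28 (95% CI -0.13 to 0.69) and 0.06 (95% CI -0.34 to 0.46).

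Of the receptors, *Ntsr1* encodes the high-affinity neurotensin receptor and lies on chromosome 2 (180141687 to 180186773, plus strand). It was among the least variable members, from 433 to 767 over the POA and from 444 to 786 over the PH libraries. Its log2 changes in the POA were -0.10 (95% CI -0.33 to 0.12) at 14 days and -0.11 (95% CI -0.34 to 0.12) at 4 months, so neither a rise above 1.09-fold nor a fall below 0.79-fold lay within these intervals. PH changes were 0.17 (95% CI -0.09 to 0.43) and 0.18 (95% CI -0.08 to 0.43).

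*Brs3* encodes bombesin receptor subtype 3, an orphan receptor of preoptic and dorsomedial neurons that raise body temperature and energy use, and lies on the X chromosome (56088434 to 56094118, plus strand). POA values in intact mice were 255, 183, 313, 187 and 339.9. At 14 days *Brs3* held both the lowest and the highest value of all POA libraries, 102 in library 6 and 381 in library 5, with a median of 260.1. It ran from 142 to 322 with a median of 247 at 4 months. Log2 changes were -0.08 (SE 0.30, 95% CI -0.71 to 0.55) at 14 days and -0.09 (95% CI -0.73 to 0.54) at 4 months, which leaves room for changes from 0.60-fold to 1.47-fold. The 14-day change turned to 0.24 without library 6 and was -0.26 without library 5, and the 4-month change was -0.24 without intact library 2 and 0.05 without library 3 at 4 months. PH values were closer together, at 225, 177, 209 and 174 in intact mice, 141 to 248 at 14 days and 164 to 256 at 4 months, and the changes were 0.09 (95% CI -0.21 to 0.39) and 0.16 (95% CI -0.13 to 0.45).

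*Nos1* encodes neuronal nitric oxide synthase, present in median preoptic neurons tied to sleep and cooling, and lies on chromosome 5 (117918971 to 118096905, plus strand). In the PH of intact mice it was 3398, 3474, 3784 and 4475. It ran from 3963 to 5344 (median 4448) at 14 days and from 3316 to 5759 (median 4884) at 4 months. At 14 days every PH library lay above 3 of the 4 intact libraries, and 2 of 6 lay above all of them. The log2 change was 0.31 (SE 0.11, 95% CI 0.09 to 0.54) at 14 days, with an adjusted *P* of 1.00, and 0.27 (SE 0.10, 95% CI 0.05 to 0.49, adjusted *P* = 0.713) at 4 months. Exact permutation tests without covariates gave *P* = 0.0476 at 14 days, or 0.05 within batches, and *P* = 0.11 at 4 months, or 0.05 within batches. In the POA, *Nos1* was 4115, 4014, 5441, 4813 and 4634 in intact mice, with medians of 4851 at 14 days and 4629 at 4 months. POA changes were 0.07 (95% CI -0.12 to 0.25) and 0.04 (95% CI -0.15 to 0.23), the narrowest intervals of all members, which reach no further than 0.90-fold and 1.19-fold. *Nos1* overlaps 6 annotated genes, 4 of them on the opposite strand and the rest on its own, and whether the counting used strand is not given in the sources used here. *Trpm2* overlaps 4 genes, 2 of them on the opposite strand. *Ntsr1* overlaps 2, and *Adcyap1* and *Bdnf* overlap 1 each, all on the opposite strand.

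*Trpm2* encodes a heat-sensitive cation channel that lets preoptic neurons respond to rising brain temperature, and it is also known in microglia. It lies on chromosome 10 (77743556 to 77806405, minus strand). POA values were 1515, 1430.2, 1684, 2006 and 2434 in intact mice, 1448 to 2486 at 14 days and 1152 to 2342 at 4 months, and the groups overlapped throughout. Log2 changes in the POA were 0.13 (95% CI -0.14 to 0.41) and -0.05 (95% CI -0.33 to 0.22), and in the PH they were 0.03 (95% CI -0.19 to 0.25) and -0.02 (95% CI -0.24 to 0.20).

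*Opn5* encodes neuropsin, a violet-light opsin of preoptic neurons that restrain brown fat, and lies on chromosome 17 (42867674 to 42922286, minus strand). Its values were low, and 5 of the 33 libraries reached 2 times the floor of 22.1, with 58.1 as the highest value. In the POA they were 29.6, 28.4, 30.7, 29.9 and 28.8 in intact mice, 26.3 to 51.1 (median 35.6) at 14 days and 27.1 to 51.1 (median 38.4) at 4 months. At 4 months 5 of 6 POA libraries lay above every intact library and 1 lay below them. Fitted together with the genes that passed the filter, *Opn5* showed a log2 difference of 0.46 (95% CI 0.13 to 0.79) at 4 months and 0.31 (95% CI -0.02 to 0.64) at 14 days in the POA, without an adjusted *P*. The size at 4 months depended on how the floor was handled, at 0.19 with a pseudocount of 50 and 0.69 with the floor subtracted. Without covariates it was 0.24 in batch 1 and 0.60 in batch 2. An exact permutation test at 4 months gave *P* = 0.0325, unadjusted for the 54 tests, or 0.04 within batches. In the PH the values were 29.1 to 33.7 in intact mice, 25.7 to 58.1 at 14 days and 27.1 to 41.6 at 4 months. PH differences against intact were 0.22 (95% CI -0.20 to 0.64) at 14 days and -0.06 (95% CI -0.47 to 0.35) at 4 months. Between the times the PH difference was -0.28 (95% CI -0.67 to 0.10). The PH response less the POA response was 0.008 (95% CI -0.52 to 0.53) at 14 days and -0.51 (95% CI -1.04 to 0.02) at 4 months.

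**Figure D2:**
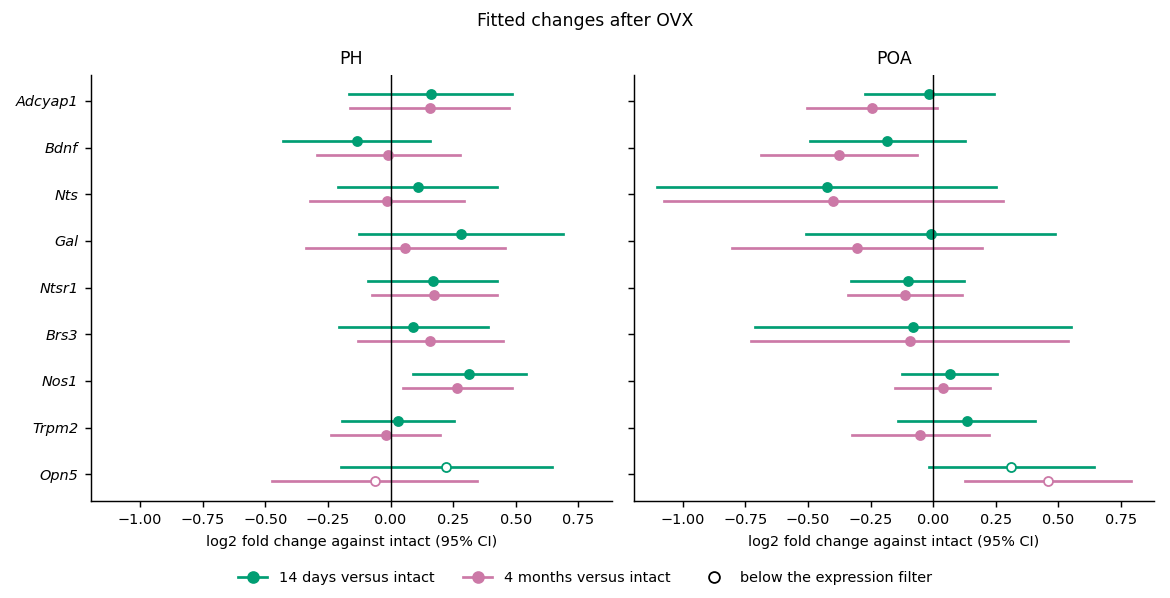
Fitted log2 fold changes against intact mice at 14 days and 4 months in the PH and POA, with 95% confidence intervals. Open circles mark *Opn5*, which lay below the expression filter; the intervals of *Nts* and *Brs3* in the POA are the widest, and those of *Nos1* in the POA, within 0.90-fold and 1.19-fold, the narrowest.

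Across the 8 tested members, the median log2 change in the POA was -0.18 at 4 months, with 7 of 8 below 0, and -0.05 at 14 days, with 6 of 8 below 0. In the PH, the median was 0.11 at 4 months, with 5 of 8 above 0, and 0.13 at 14 days, with 7 of 8 above 0. Over all genes tested, the medians were -0.01 in the POA at both times, -0.0018 in the PH at 14 days and -0.01 at 4 months. Comparisons with intact mice within a region share the intact libraries, and several members varied together, so these counts are not independent. Of the 54 exact tests, 3 had *P* under 0.05, those of *Adcyap1*, *Nos1* and *Opn5* given above. For the 8 members that passed the filter it was 2 of 48, near the 3.91% of all genes tested over the 6 comparisons. The sign of the difference was the same in both batches in 24 of these 48, beside 52.3% of all genes. The groups of a member overlapped in each of the 54, and only 0.49% of all genes separated without overlap.

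What set the members apart from one another was how much they differed between libraries of the same group. In the POA, the within-group SD on the log2 scale was 0.57 for *Nts*, 0.51 for *Brs3* and 0.42 for *Gal*, against a median of 0.22 over all tested genes, and 97.8%, 96.8% and 93.9% of genes varied less. The first 2 values rested in part on library 6 at 14 days. Without it, the SDs were 0.34 for *Nts*, 0.38 for *Brs3* and 0.40 for *Gal* against a median of 0.21, with 88.5%, 91.9% and 93.8% of genes varying less, and *Nts* no longer stood above *Bdnf* (0.35). In the PH, the SDs of the same genes were 0.28, 0.24 and 0.34 against a median of 0.26, and 55.7%, 43.9% and 74.5% of genes varied less. *Bdnf* varied more than most genes in both regions, with SDs of 0.49 in the PH and 0.34 in the POA. *Nos1* was below the median of all genes in both regions, with SDs of 0.22 (PH) and 0.19 (POA). *Ntsr1* was below it in the PH, at 0.20, and at it in the POA, at 0.22.

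**Figure D3:**
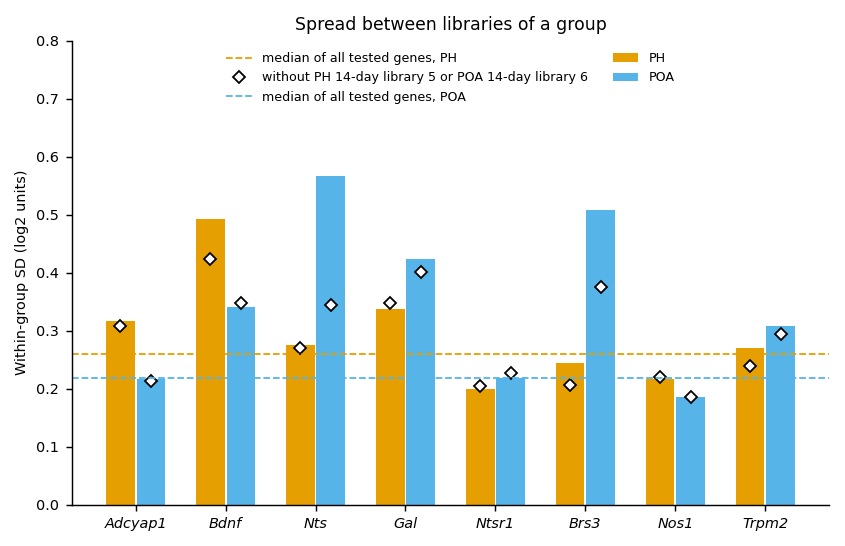
Within-group standard deviation of log2 values (bars from 0) for the 8 tested genes in the PH and POA, with dashed lines at the median of all tested genes of each region. Diamonds leave out PH library 5 or POA library 6 at 14 days; *Nts*, *Brs3* and *Gal* stand highest in the POA at 0.57, 0.51 and 0.42, but at 0.34, 0.38 and 0.40 without library 6, next to 0.35 for *Bdnf*.

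*Brs3* rose and fell with *Nts* and with *Gal* from one POA library to the next. After centering on group means, over 17 libraries, *Brs3* correlated with *Nts* at *r* = 0.86 (Spearman rho 0.72) and with *Gal* at *r* = 0.78 (rho 0.71). Without library 6 at 14 days these values were 0.69 and 0.75, and without the 2 libraries farthest from the median of the second gene 0.77 and 0.72. With this centering, *Gal* and *Nts* were less alike, at *r* = 0.56 (rho 0.39), or 0.43 without library 6, and *Gal* correlated more with *Nos1*, at *r* = 0.76 (rho 0.73). Centering on group and batch reversed that order, with *r* = 0.81 for *Gal* and *Nts* and 0.65 for *Gal* and *Nos1*. *Brs3* then stood at 0.90 with *Nts* and 0.86 with *Gal*. In the PH, centered on group means alone, the pair *Gal* and *Nos1* stood at *r* = 0.85 (rho 0.69) over 16 libraries, and *Bdnf* and *Trpm2* ran against each other at *r* = -0.80 (rho -0.70). Libraries share processing and a normalization, so these correlations are descriptions.

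Of the 17 POA libraries, the gene most like *Brs3* among protein-coding genes was *Esr1*, the estrogen receptor α gene, at *r* = 0.99 (rho 0.95, 0.98 without library 6 at 14 days, 0.97 without the 2 libraries farthest from the median). *Esr1* ran from 502 in library 6 at 14 days to 1412 in library 5 at 14 days, the same libraries that held the lowest and the highest *Brs3*. The second was *Tle4*, a corepressor gene, at *r* = 0.97. *Calcr*, the calcitonin receptor gene of medial preoptic neurons, followed *Brs3* at *r* = 0.95, with 488 and 1756 in those libraries. For *Nts*, the most similar genes were *Gad2*, which encodes an enzyme of GABA synthesis, and *Vstm2a*, each at *r* = 0.97 (rho 0.88 and 0.95, 0.93 and 0.90 without library 6). *Gad2* was 14058 in library 6 at 14 days and between 20559.9 and 36667 in the other 16.

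*Pmch* ran the other way. It was highest, at 4316, in the POA library with the lowest *Brs3* and *Nts*, and lowest, at 136, in the library with the highest *Brs3* and *Gal*. Over the 17 libraries *Pmch* correlated with *Gal* at *r* = -0.86 (rho -0.88), with *Brs3* at *r* = -0.83 (rho -0.83), with *Nos1* at *r* = -0.80 (rho -0.80) and with *Nts* at *r* = -0.66 (rho -0.60). *Hcrt*, the orexin gene of the lateral hypothalamus, correlated with the same 4 members at *r* = -0.69, -0.72, -0.77 and -0.63. *Adcyap1* and *Bdnf* went with these lateral and posterior peptides instead. *Adcyap1* stood at *r* = 0.60 with *Pmch* and 0.69 with *Hcrt* in the POA, and at 0.89 and 0.80 in the PH. *Bdnf* stood at *r* = 0.56 and 0.58 in the POA, and at 0.81 and 0.30 in the PH. The opposition of *Pmch* to the other members was weaker in the PH, at *r* = -0.48 for *Gal*, -0.36 for *Brs3* (rho -0.07) and -0.61 for *Nos1*. For *Nts* it had the other sign there, at 0.40 (rho 0.49). In the POA, *Ntsr1* stood with *Pmch* at -0.35 and *Trpm2* at 0.06, or 0.55 for *Trpm2* after batch centering. PH libraries 3 and 5 at 4 months held *Pmch* at 10386 and 4744 and *Adcyap1* at 2731 and 3046. The part of the *Pmch* and *Hcrt* neurons' share of the tissue in these values was not tested.

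**Figure D4:**
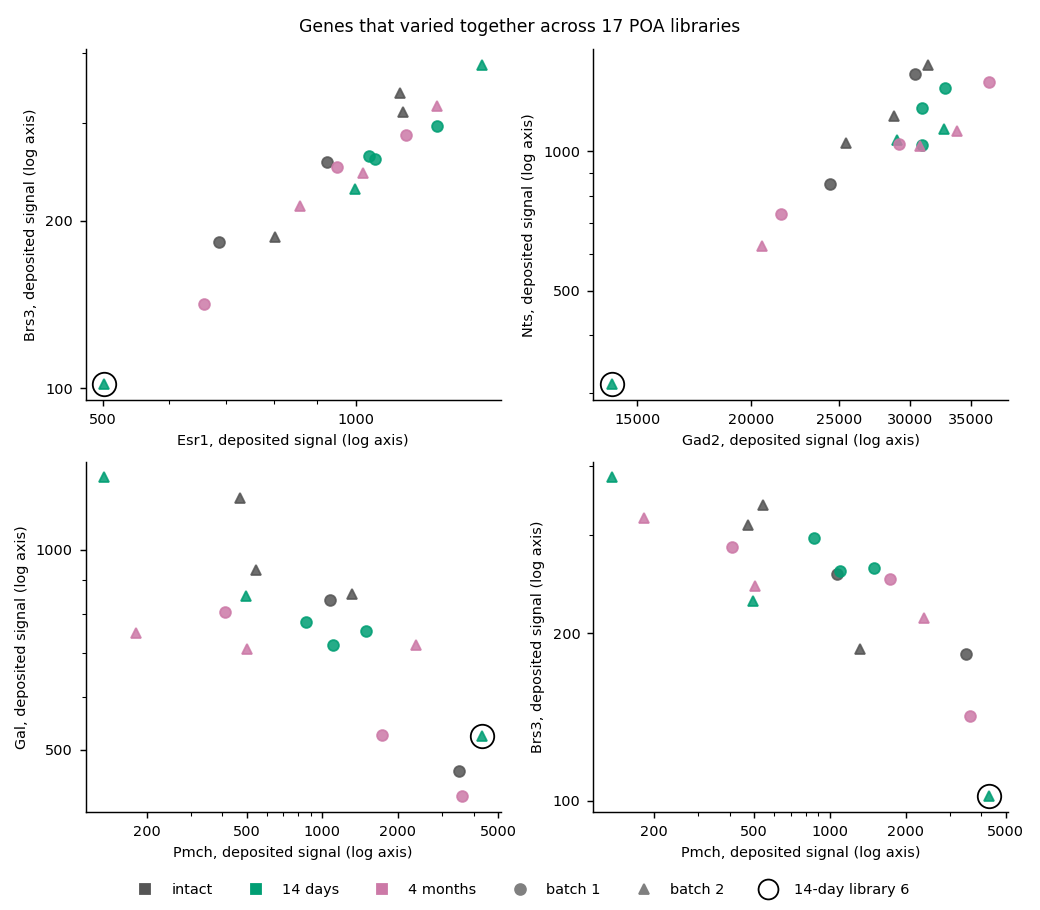
Deposited signal of member genes against other genes in 17 POA libraries (both axes logarithmic), colored by time after OVX, with circles for batch 1 and triangles for batch 2. *Brs3* rises with *Esr1* and *Nts* with *Gad2*, whereas *Gal* and *Brs3* fall with *Pmch*; the ringed 14-day library 6 has the lowest *Brs3*, *Nts*, *Esr1* and *Gad2* and the highest *Pmch*.

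When the log2 value of *Pmch* was added to the fit beside SV1, a choice made after seeing the data, the standard errors of these genes in the POA shrank. *Pmch* was already known to vary with them in the same libraries, so the smaller errors follow from that choice and add no evidence of a change. For *Nts* the change against intact was then -0.55 (SE 0.13, adjusted *P* = 0.229) at 14 days and -0.51 (SE 0.13, adjusted *P* = 0.126) at 4 months. *Brs3* stood at -0.20 (SE 0.13) at both times, and *Gal* at -0.10 (SE 0.12) and -0.38 (SE 0.12, adjusted *P* = 0.193). No member was called with this term either.

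For the other members the most similar POA genes were *Hnrnpu* and *Ccdc82* for *Bdnf* (both *r* = 0.92), *Ssr2* (0.95) and *Tmed4* (0.94) for *Gal*, *Atp8a2* (0.93) and *Eral1* (0.89) for *Ntsr1*, *Ngb* and *Galnt2* for *Nos1* (both 0.90), *Slc11a1* and *Myh7b* for *Trpm2* (both 0.89), and *Morc4* (0.84) and *Adgrg2* (0.81) for *Adcyap1*. In the PH, *Adcyap1* was most like *Zfp420* (0.90) and *Hcrtr2* (0.89), the second of which encodes an orexin receptor. PH *Bdnf* was most like *4930503L19Rik* (0.97) and *Fgf13* (0.96), and it also followed *Snap25*, a gene of nerve terminals, at 0.86. The PH partners of *Brs3* were *Saysd1* and *Vps72* (both 0.89), not *Esr1*, with which it stood at 0.73, or 0.16 without the 2 libraries farthest from the median. The remaining PH pairs were *D630023F18Rik* (0.87) and *Trhr* (0.86) for *Nts*, *Spint1* (0.94) and *Gng4* (0.91) for *Gal*, *Atic* (0.91) and *Zcchc3* (0.88) for *Ntsr1*, *Mettl26* (0.92) and *Tle4* (0.90) for *Nos1*, and *Klhl18* (0.95) and *Abcg4* (0.94) for *Trpm2*. Each is the highest of a very large number of correlations, and no function is read from them.

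More genes were called between the 2 labelled batches, each with 2 or 3 libraries of every group, than between the groups. In a POA fit of group and batch, 4 of 8 tested members were called between batches, beside 39.8% of all genes (8490 of 21339), so the members' share was near that of all genes. *Bdnf* was lower in batch 2, by -0.42 on the log2 scale (95% CI -0.66 to -0.18, adjusted *P* = 0.00678). *Trpm2* (0.38, 95% CI 0.16 to 0.60, adjusted *P* = 0.00659), *Ntsr1* (0.26, adjusted *P* = 0.0163) and *Nos1* (0.20, adjusted *P* = 0.026) were higher in batch 2. In the PH no member was called (limma, adjusted *P* from 0.117 upward) beside 1.28% of all genes (282 of 21966), although *Gal* was 0.40 higher in batch 2 (95% CI 0.14 to 0.67, adjusted *P* = 0.117). SV1 followed the batches in both regions, with every batch 1 library above every batch 2 library in the POA. In the PH the same held (batch 1 from -0.022 upward, batch 2 at -0.161 or lower) except for library 5 of batch 2 at 14 days, which stood far above all others at 0.785. The labels do not say what a batch was.

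**Figure D5:**
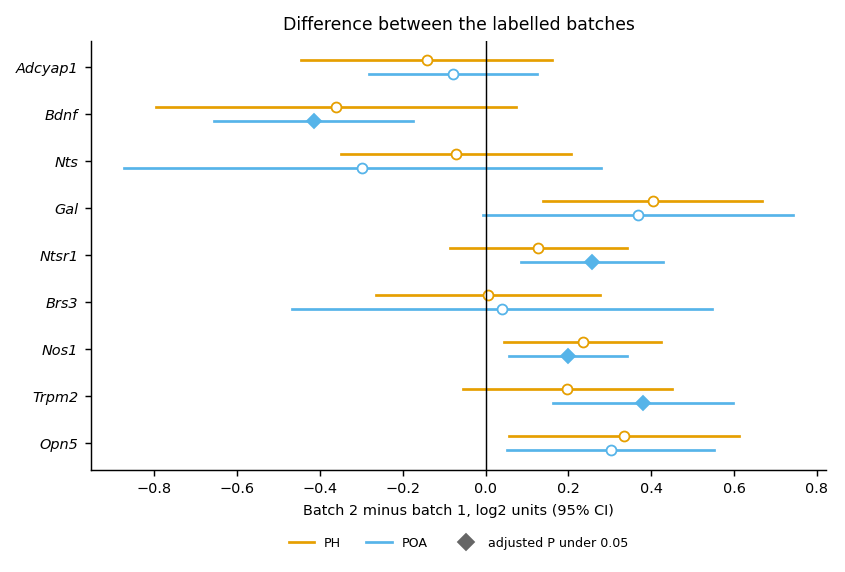
Difference between the labelled batches, batch 2 minus batch 1, in log2 units with 95% confidence intervals, for the 9 genes in the PH and POA. Filled diamonds mark an adjusted *P* under 0.05, reached in the POA by *Bdnf* (-0.42), *Ntsr1* (0.26), *Nos1* (0.20) and *Trpm2* (0.38).

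Of 22 receptors and signalling partners, all of which passed the filter, 0 were called in any comparison within a region (limma). At an unadjusted *P* under 0.05 there were 0, 3 and 1 of 22 in the PH (14 days, 4 months, between times), beside 3.04%, 6.06% and 4.09% of all genes. In the POA there were 2, 1 and 1, beside 6.14%, 8.5% and 5.11%. Their median log2 change in the POA was -0.01 at 14 days and -0.02 at 4 months, next to -0.01 over all genes at both times. *Dlg4*, which encodes the scaffold PSD-95 that holds neuronal nitric oxide synthase at synapses, stood at -0.16 (95% CI -0.25 to -0.07, adjusted *P* = 0.682) and -0.17 (95% CI -0.26 to -0.08, adjusted *P* = 0.208) in the POA. *Nmbr*, a bombesin-family receptor gene, stood at 0.36 (95% CI 0.04 to 0.69, adjusted *P* = 0.80) in the POA at 14 days, and *Galr3*, a galanin receptor gene, at 0.28 (95% CI -0.02 to 0.57, adjusted *P* = 0.616) at 4 months. Between the times, *Galr2*, another galanin receptor gene, and *Opn3*, a brain opsin gene, both stood at -0.26 (adjusted *P* = 0.973 and 1.00).

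Of 22 other genes of preoptic temperature and sleep neurons, 20 were tested in the POA and 21 in the PH, and 0 were called within a region (limma). Unadjusted *P* was under 0.05 for 1, 2 and 1 of them in the POA, beside 6.14%, 8.5% and 5.11% of all genes. In the PH it was 2, 1 and 2, beside 3.04%, 6.06% and 4.09%. *Trpv1* failed the filter in both regions and *Opn4* in the POA. Median log2 changes in the POA were -0.03 at 14 days and -0.01 at 4 months. The PH medians were 0.08 (16 of 21 genes above 0) for the shorter time, -0.01 (9 of 21) for the longer one and -0.13 (4 of 21) between them, while the medians of all genes lay within 0.01 of 0. *Esr1* stood at 0.39 (95% CI 0.13 to 0.64, adjusted *P* = 1.00) in the PH at 14 days. In the POA, *Pgr*, the estrogen-induced progesterone receptor gene, stood at -0.16 (95% CI -0.28 to -0.03, adjusted *P* = 0.799) at 14 days and -0.24 (95% CI -0.37 to -0.11, adjusted *P* = 0.199) at 4 months. Also in the POA, *Ptger3*, which encodes the prostaglandin receptor of preoptic fever neurons, stood at -0.32 (95% CI -0.56 to -0.07, adjusted *P* = 0.414) at 4 months against intact and at -0.25 (adjusted *P* = 0.964) against 14 days. *Cck* stood at 0.45 (95% CI -0.15 to 1.05, adjusted *P* = 0.836) in the POA at 14 days.

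Immediate early genes, which neurons switch on shortly after they are activated, gave the only calls among these lists. The 12 genes, all tested, were *Fos*, *Fosb*, *Junb*, *Egr1*, *Egr2*, *Npas4*, *Arc*, *Nr4a1*, *Ier2*, *Btg2*, *Dusp1* and *Homer1*. In the POA, 3 of 12 were called higher at 4 months against intact, beside 0.0937% of all genes called. At 4 months against 14 days it was 3 of 12 beside 0.0281%, and 0 were called lower. The list was chosen with earlier results of these data known, so these shares are descriptions and no test of the list. *Btg2* was 0.89 higher than in intact mice (95% CI 0.65 to 1.12, adjusted *P* = 0.00192), *Npas4* 0.74 (95% CI 0.45 to 1.02, adjusted *P* = 0.0427) and *Dusp1* 0.68 (95% CI 0.49 to 0.87, adjusted *P* = 0.00265). Against 14 days they were 0.95, 0.91 and 0.69 higher (adjusted *P* = 0.000593, 0.00679 and 0.00149). The POA median of the 12 was 0.30 at 4 months against intact, with 8 of 12 above 0. At 14 days against intact it was -0.26, with 0 of 12 above 0, and 0 were called by limma. There, 5 of 12 had an unadjusted *P* under 0.05, beside 6.14% of all genes, and *Egr1* (-0.71, adjusted *P* = 0.658) and *Egr2* (-0.58, adjusted *P* = 0.799) led. At 4 months 6 of 12 had an unadjusted *P* under 0.05 against intact, beside 8.5%, and 9 of 12 against 14 days, beside 5.11%. Whether preoptic neurons were more active was not tested. In the PH 0 of 12 were called, and *Btg2* and *Npas4* stood at 0.58 and 0.90 at 4 months (both adjusted *P* = 0.207). Unadjusted *P* (limma) was under 0.05 there for 1, 4 and 6 of 12 (14 days, 4 months, between times), beside 3.04%, 6.06% and 4.09% of all genes. PH medians were -0.09, 0.19 and 0.28. The PH response less the POA response at 4 months had a median of 0.0027, with 6 of 12 above 0 and 0 called.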

How the data were processed

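The authors pseudoaligned stranded poly(A) RNA-seq reads (KAPA mRNA HyperPrep) of the PH and POA to mm39 with kallisto, summarized transcripts per gene with tximport and used DESeq2 for normalization. The deposited table holds signal on a linear scale, not counts, with a floor of 22.1 rather than 0, and the step that made it is not given in the sources used here. Its values look as if 1 component, largely between regions, had been subtracted, and SV1 was estimated on these values. The planned test on counts was therefore replaced. From the 41565 named entries (1259 without a name were left out), log2 values were fitted per region with limma (version 3.58.1, R 4.3.3, trend and robust) on the 3 groups and SV1, estimated in 5 rounds. The code was run on simulated data with batch shifts and planted changes. That simulation held no subtracted component and no outlying library, so it does not cover these features of the data. *P* values were adjusted over all genes reaching 2 times the floor in at least 4 PH or 5 POA libraries. Regions were compared as an interaction in 1 fit of 33 libraries. Exact permutation tests used all splits of libraries. Promoters came from RefSeq (GRCm38.p6) and gene positions from GENCODE M39 (GRCm39), a later release than the M30 of the authors.

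The members, the gene lists and the tests were chosen with earlier results of these data known. Named genes are the members, the called genes of each list or otherwise the 2 with the smallest *P* in each POA comparison, and the 2 protein-coding genes most correlated with each member per region. *Esr1*, *Calcr*, *Pmch*, *Hcrt* and *Snap25*, *Gnrh1*, the PH values of *Esr1*, *Btg2* and *Npas4*, and the batch comparison were added after their values were seen.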

Additional observations from a re-analysis of the deposited data

Results flagged for a closer look

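For 3 of the 54 combinations of gene and group, 1 library stood apart from the rest of its group by a gap larger than Dixon's 95% critical value, which chance exceeds in about 1 of 20 groups. *Adcyap1* was 1592 in library 4 of the intact PH, where the next value was 1942. *Nts* was 314 in library 6 of the POA at 14 days, where the next was 1035, and this library also held the lowest *Brs3*, *Esr1*, *Calcr* and *Gad2* and the highest *Pmch* of the POA. *Opn5* was 41.6 in library 5 of the PH at 4 months, where the next was 29.7, both below 2 times the floor. No member passed the test of a difference between its PH and POA responses.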

How the results depend on the processing

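No member was called under any alternative: SV1 left out, replaced by batch, or joined by batch, the floor level or *Pmch*, single batches, only the groups compared, another pseudocount or filter, median centring, a plain variance estimate, and each library left out in turn, which left the count of called members at 0. The smallest adjusted *P* (limma) of a member was 0.126, for *Nts* in the POA at 4 months with *Pmch*. Of 2673 member values under an alternative, 171 changed sign, of which 8 belonged to changes larger than their standard error. In batch 1 alone, the PH response less the POA response at 14 days was -0.076 for *Gal* and -0.066 for *Nts*, *Nts* in the POA at 14 days was 0.11 and *Opn5* in the PH at 14 days -0.10. In batch 2 alone, *Gal* in the PH between the times was 0.055, *Ntsr1* in the PH at 14 days -0.10 and *Trpm2* in the POA at 14 days -0.014. With the replicate number as a block *Trpm2* in the POA at 14 days was -0.021, and 0 members were called.

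Whether replicate numbers pair the libraries was not settled, since the numbers largely follow the batches and no expected share was worked out. Same-numbered deviations from group means correlated above 0.1 in 9 of 14 PH pairs and 14 of 16 POA pairs, but in 6 and 2 of them once batches were centred, and 11 of 33 libraries correlated best with their own number. Across regions, 14 of 16 same-numbered pairs exceeded 0.1, and 5 after batch centring. The count of all genes called in the POA at 4 months against intact, 20, ranged from 0 in batch 1 alone to 70 with *Pmch*, and from 4 without library 6 at 4 months to 37 without library 6 at 14 days. In the PH at 4 months the 7 ranged from 0 to 11, and from 5 to 14 with a library left out. Over all alternatives, the count of 0 in the PH at 14 days ranged from 0 to 2, the 2 in the PH between the times from 0 to 4, the 1 in the POA at 14 days from 0 to 2, the 6 in the POA between the times from 0 to 7, and the 1 and 2 for the difference between regions at 14 days and 4 months from 0 to 1 and from 0 to 3. The causes were not tested. Depth is unknown, and the intervals in the POA at 14 days reach down to 0.47-fold for *Nts* and up to 1.47-fold for *Brs3*.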
